A study of Saccharomyces cerevisiae with 2 samples.

Results

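Aminoacyl-tRNA synthetases are the enzymes that join each amino acid to its tRNA. The genes examined were 32 synthetase genes, chosen by name: 18 for enzymes that work in the cytosol, or in both cytosol and mitochondria, and 14 for enzymes of mitochondria alone. All 32 were found among the 6592 named genes of the table. Ribosome footprints, the stretches of mRNA shielded by ribosomes, had been sequenced from budding yeast of the SK1 background held for 4 hours in sporulation medium, which starts meiosis. One library came from cells with a deletion of GIM3, labelled gim3 deletion, and 1 from WT cells without it. GIM3 encodes a subunit of prefoldin, a cochaperone for actin and tubulin. Per the labels' protocols, cultures for meiosis grew in YEPD at 22 degrees C for 24 hours and in BYTA for 16 hours before the shift.

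Budding yeast keeps largely separate enzyme sets for its 2 protein synthesis systems. The cytosolic set serves the bulk of protein synthesis. The mitochondrial set, encoded in the nucleus and imported, serves the few proteins translated inside the organelle, among them subunits of the respiratory chain. Some genes serve both places from 1 locus by starting translation at different codons, as ALA1, GRS1, HTS1 and VAS1 do, so their footprints cannot be divided between the compartments here. Yeast needs respiration to sporulate, while many genes of cytosolic translation are repressed when nutrients run out.

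With 1 library per genotype there was no replicate error and no test between genotypes. Values below are those of 2 libraries, and intervals are exact 95% intervals that cover counting error only. The gim3 deletion library held 27864644 footprints and the WT library 40433177. Levels are in RPM, footprints scaled to a library total of 1000000, and where genes are set against each other, in RPM per kilobase of coding length in the R64 reference table. GIM3 itself stood at 0.108 RPM (3 reads) in the gim3 deletion library and at 34.9 RPM in the WT library. Ratios are given as gim3 deletion over WT, and log2 ratios carry a pseudocount of 1 RPM. A gene was compared where its mean over both libraries reached 10 RPM, which left 4916 genes, among them all 18 cytosolic or dual and all 14 mitochondrial members. The median compared gene had a log2 ratio of -0.20, so a ratio slightly below 1 is the middle of this comparison. Because mRNA was not measured here, mRNA amount and its translation cannot be told apart, nor can a different mix of cells and different levels per cell.

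Cytosolic enzymes mostly had fewer footprints in the gim3 deletion library, and mitochondrial ones mostly had more. Of the 18 cytosolic or dual members 15 had a log2 ratio below 0 and 3 above 0, against 64.5% and 35.5% of all compared genes. Set against the median gene, 14 were below it and 4 above. The 18 cytosolic or dual members together took 0.336% of footprints in the gim3 deletion library (Wilson interval 0.334 to 0.338) and 0.494% in the WT library (0.492 to 0.497). The 14 mitochondrial members took 0.0306% in the gim3 deletion library (0.0299 to 0.0312) and 0.0243% in the WT library (0.0239 to 0.0248). Footprints on the cytosolic set therefore outnumbered those on the mitochondrial set 11.0 to 1 in the gim3 deletion library and 20.3 to 1 in the WT library. The median log2 ratio was -0.41 for the cytosolic or dual members and 0.20 for the mitochondrial ones, against -0.20 for all compared genes.

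**Figure D1:**
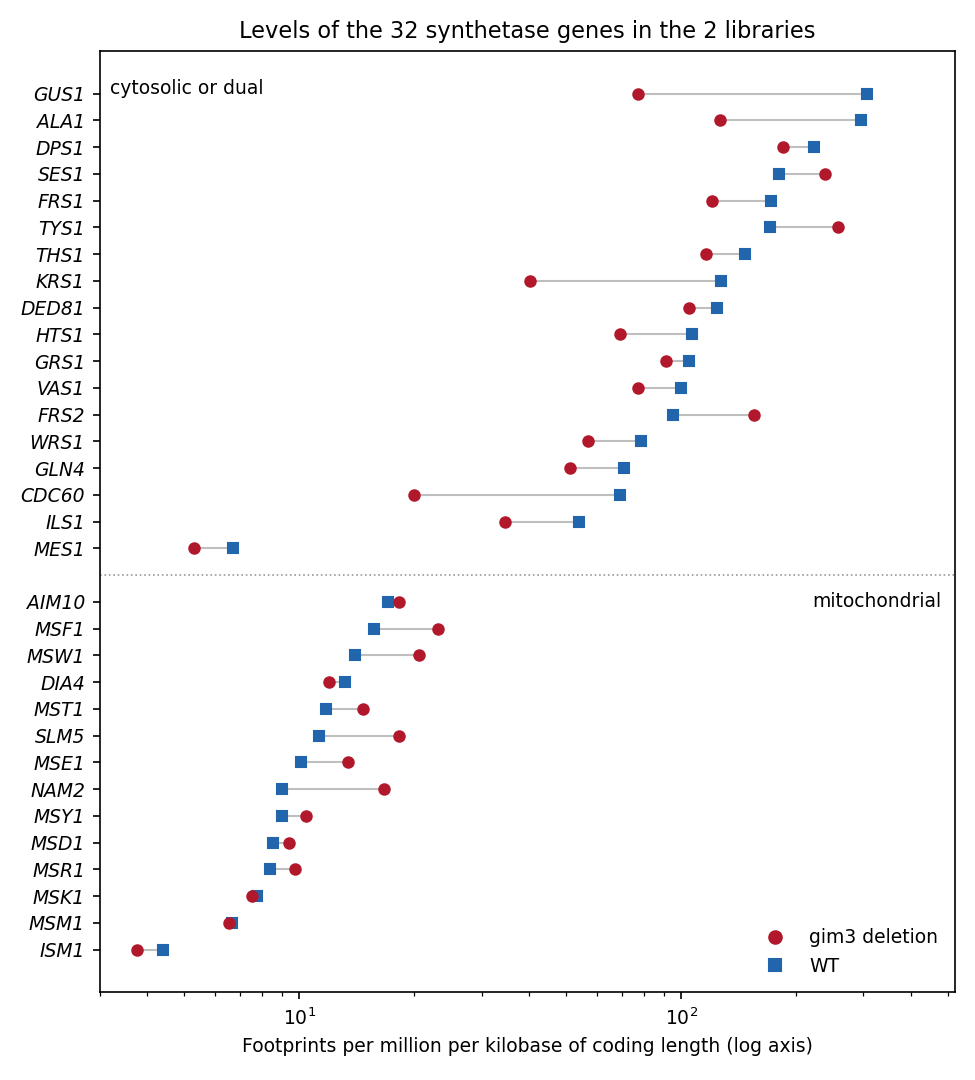
Levels of the 32 synthetase genes, in RPM per kilobase of coding length on a log axis, 1 point per library (circles, gim3 deletion; squares, WT), in 2 blocks by compartment and ordered by the WT level. In the upper block the circle lies left of the square for 15 of 18 genes. In the lower block it lies right of it for 10 of 14, and MES1 is the 1 cytosolic gene that lies within the mitochondrial range in both libraries.

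Per kilobase the compartments were far apart in level. Cytosolic or dual members had a median of 84.2 RPM per kilobase in the gim3 deletion library and 116 in the WT library. Mitochondrial members had a median of 12.7 RPM per kilobase in the gim3 deletion library and 9.56 in the WT library. Their highest value was 23.1 RPM per kilobase in the gim3 deletion library (MSF1) and 17.1 in the WT library (AIM10). Only MES1 among the cytosolic members lay below that top in both libraries, and CDC60 did so in the gim3 deletion library alone, at 19.99 RPM per kilobase.

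The order of the cytosolic genes differed between the libraries. GUS1 ranked 11 of 18 per kilobase in the gim3 deletion library and 1 of 18 in the WT library, while TYS1 ranked 1 in the gim3 deletion library and 6 in the WT library. Counting intervals of neighbours in this order overlapped for 2 of 17 neighbour pairs in the gim3 deletion library and for 4 of 17 in the WT library. For the sparser mitochondrial genes they overlapped for 11 of 13 neighbour pairs in the gim3 deletion library and for 12 of 13 in the WT library, so most of that order is not resolved. ISM1 was the lowest of all 32 in both libraries, at 3.77 RPM per kilobase in the gim3 deletion library and 4.41 in the WT library.

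Among the 18 cytosolic or dual members, 4 had a ratio of 2-fold or more on the lower side and 0 on the higher side. Over all compared genes these shares were 8.5% and 6.35%. At 1.5-fold, 6 were lower and 2 higher, against 22.6% and 12% of all compared genes. The 4 were GUS1, CDC60, KRS1 and ALA1, and they remained past 2-fold when centred on the median gene. GUS1, the glutamyl-tRNA synthetase, had 164 RPM in the gim3 deletion library and 652 RPM in the WT library, 3.97-fold lower (interval 3.85 to 4.10). Its log2 ratio of -1.98 was the 36th lowest of the 4916. CDC60, the leucyl-tRNA synthetase that also acts as a leucine sensor for the TORC1 growth pathway, had 65.4 RPM in the gim3 deletion library and 226 RPM in the WT library, 3.45-fold lower (3.28 to 3.63). KRS1, the lysyl-tRNA synthetase, had 71.3 RPM in the gim3 deletion library and 226 RPM in the WT library, 3.17-fold lower (3.02 to 3.33). ALA1, which charges alanine tRNAs in both compartments, had 364 RPM in the gim3 deletion library and 853 RPM in the WT library, 2.35-fold lower (2.29 to 2.40).

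These 4 genes carried much of the difference in the cytosolic sum. Their summed level was 664 RPM in the gim3 deletion library, 19.8% of the cytosolic or dual sum, against 1956 RPM and 39.6% in the WT library. The other 14 members summed to 2698 RPM in the gim3 deletion library and 2987 RPM in the WT library. Without the 4, chosen here by their values, the median log2 ratio of the cytosolic or dual members was -0.33, against -0.20 for the median gene. By their sums, however, the other 14 differed less between the libraries than the median gene did. They were thus not below the middle of all genes by each measure.

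A further 11 cytosolic or dual members were lower by less than 2-fold. Of these, ILS1 and HTS1 stood lowest. ILS1, for isoleucine, had 111 RPM in the gim3 deletion library and 173 RPM in the WT library, a log2 ratio of -0.64. HTS1, which supplies histidyl-tRNA synthetase to both compartments, had 113 RPM in the gim3 deletion library and 175 RPM in the WT library, a log2 ratio of -0.63. GLN4 for glutamine, at 124 RPM in the gim3 deletion library and 172 RPM in the WT library, had a log2 ratio of -0.47. WRS1 for tryptophan, at 74.2 RPM in the gim3 deletion library and 102 RPM in the WT library, had one of -0.46. Relative to the median gene the log2 ratios of these 4 were between -0.43 and -0.25.

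Closer to the median gene were the enzymes for valine, threonine, methionine, aspartate, asparagine and glycine. VAS1, dual for valine, had 256 RPM in the gim3 deletion library and 331 RPM in the WT library, and THS1 for threonine had 256 RPM in the gim3 deletion library and 324 RPM in the WT library. DPS1 for aspartate had 309 RPM in the gim3 deletion library and 374 RPM in the WT library, and DED81 for asparagine 174 RPM in the gim3 deletion library and 207 RPM in the WT library. GRS1, dual for glycine, had 183 RPM in the gim3 deletion library and 210 RPM in the WT library. The log2 ratios of these 5 ran from -0.37 for VAS1 to -0.20 for GRS1, which equals the median gene to 2 decimals, so none of the 5 was set far apart from the middle of all genes.

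MES1, the methionyl-tRNA synthetase, was the sparsest cytosolic member, with 11.95 RPM (333 reads) in the gim3 deletion library and 15.1 RPM (612 reads) in the WT library. It is an essential enzyme, and its level per kilobase was close to that of its mitochondrial counterpart MSM1 (5.30 for MES1 and 6.56 for MSM1 in the gim3 deletion library, 6.71 and 6.66 in the WT library). The level of MES1 is uncertain. YGR265W, a dubious reading frame that lies over MES1, is listed in the table at 0 in both libraries, and how reads in overlapping genes were counted is not stated in the sources used here. Beside 5 further members (ALA1, DPS1, GLN4, ILS1 and MSW1) the table also lists a frame with a neighbouring systematic number at 0 in both libraries. The part of such frames in the levels was not tested.

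The 3 cytosolic members with more footprints in the gim3 deletion library were FRS2, TYS1 and SES1. FRS2, the alpha subunit of phenylalanyl-tRNA synthetase, had 234 RPM in the gim3 deletion library and 144 RPM in the WT library, 1.63-fold higher (1.57 to 1.69). TYS1, for tyrosine, had 304 RPM in the gim3 deletion library and 202 RPM in the WT library, 1.503-fold higher (1.46 to 1.55). SES1, for serine, had 331 RPM in the gim3 deletion library and 250 RPM in the WT library, 1.33-fold higher (1.29 to 1.36). Their log2 ratios of 0.70, 0.59 and 0.40 lay 0.61 to 0.90 above the median gene.

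FRS2 and its partner differed in opposite directions. Cytosolic phenylalanyl-tRNA synthetase is built from equal numbers of FRS1 and FRS2 chains. FRS1, the beta subunit, had 215 RPM in the gim3 deletion library and 307 RPM in the WT library, a log2 ratio of -0.51. Per kilobase, the level of FRS1 was 0.777 times that of FRS2 in the gim3 deletion library and 1.80 times in the WT library.

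GUS1 and MES1 are held in 1 complex in the cytosol by ARC1, a tRNA-binding protein that raises their activity. ARC1 had 413 RPM in the gim3 deletion library and 578 RPM in the WT library, 1.40-fold lower (1.37 to 1.43). Its level per kilobase was 4.74 times that of GUS1 in the gim3 deletion library and 1.67 times in the WT library. The members of this complex thus differed unequally: the log2 ratio was -1.98 for GUS1, -0.48 for ARC1 and -0.32 for MES1.

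**Figure D2:**
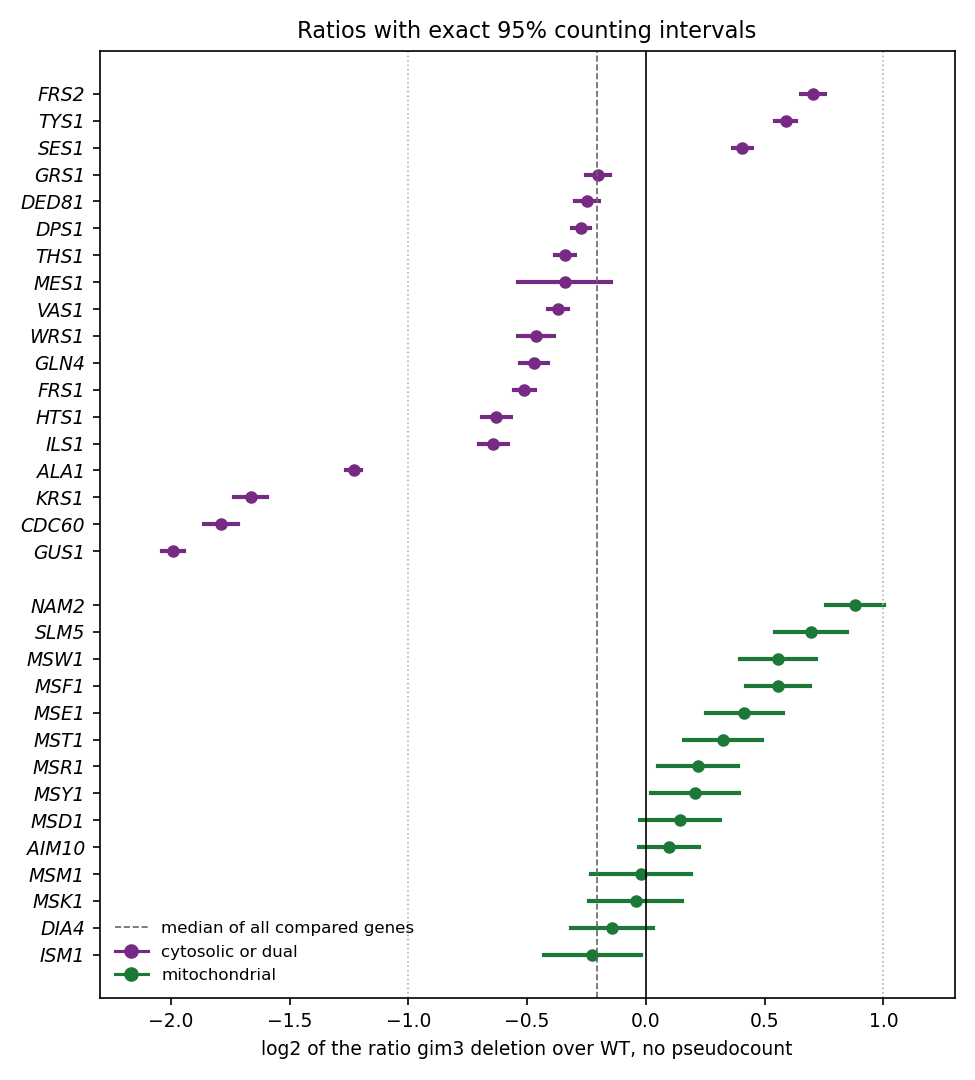
log2 of the ratio gim3 deletion over WT, without pseudocount, for each synthetase gene (point) with its exact 95% counting interval (bar), cytosolic or dual genes above and mitochondrial genes below. The dashed line marks the median compared gene at -0.20 and dotted lines mark 2-fold. GUS1, CDC60, KRS1 and ALA1 lie past the 2-fold line on the lower side, and 13 of 14 mitochondrial genes lie right of the dashed line.

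Mitochondrial members all lay within 2-fold, with 0 at least 2-fold lower and 0 at least 2-fold higher. Of all compared genes 8.5% were lower and 6.35% higher by this rule, so 0 of 14 is close to the background. The signs of the ratios were further from it. Of the 14, 10 had a log2 ratio above 0 and 4 below 0, against 35.5% and 64.5% of all compared genes, and 13 lay above the median gene. The counting interval of the ratio lay above 1 for 8 members, below 1 for 1 and across 1 for 5. Over all compared genes it lay above 1 for 30.2% and below 1 for 58.2%. Among the cytosolic or dual members it lay above 1 for 3, below 1 for 15 and across 1 for 0. An exact binomial test on the recovered reads, which compares these libraries and not the genotypes, gave the same counts in both lists, and called 30.1% of all compared genes higher and 58.1% lower.

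NAM2 had the highest ratio of any member. It encodes mitochondrial leucyl-tRNA synthetase, which also assists the splicing of mitochondrial introns. It had 44.7 RPM in the gim3 deletion library and 24.3 RPM in the WT library, 1.84-fold higher (1.69 to 2.00), and was past 2-fold when centred on the median gene, with a log2 ratio of 1.06. SLM5, for asparagine, had 26.9 RPM in the gim3 deletion library and 16.6 RPM in the WT library, 1.62-fold higher (1.46 to 1.80). MSF1, for phenylalanine and a single chain unlike the cytosolic enzyme, had 32.6 RPM in the gim3 deletion library and 22.2 RPM in the WT library, 1.47-fold higher (1.34 to 1.61). MSW1, for tryptophan, had 23.5 RPM in the gim3 deletion library and 16.0 RPM in the WT library, 1.47-fold higher (1.32 to 1.64).

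For 4 further members the interval also lay above 1. MSE1, for glutamate, had 21.6 RPM in the gim3 deletion library and 16.2 RPM in the WT library, a ratio of 1.33 (1.19 to 1.49). MST1, for threonine, had 20.5 RPM in the gim3 deletion library and 16.3 RPM in the WT library, a ratio of 1.25 (1.12 to 1.40). MSR1, for arginine, and MSY1, for tyrosine, had ratios of 1.16 (1.04 to 1.31) and 1.15 (1.01 to 1.31), with lower bounds just above 1.

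The remaining 6 mitochondrial members differed little. AIM10, assigned to proline, had 31.6 RPM in the gim3 deletion library and 29.6 RPM in the WT library. MSD1, for aspartate, had 18.6 RPM in the gim3 deletion library and 16.9 RPM in the WT library, and DIA4, assigned to serine, had 16.0 RPM in the gim3 deletion library and 17.7 RPM in the WT library. MSK1, for lysine, had 12.99 RPM in the gim3 deletion library and 13.4 RPM in the WT library, and MSM1, for methionine, 11.3 RPM in the gim3 deletion library and 11.5 RPM in the WT library. For these 5 the counting interval of the ratio spanned 1, so a difference was not detectable at this depth. ISM1, for isoleucine, had 11.3 RPM in the gim3 deletion library and 13.3 RPM in the WT library, a ratio of 0.855 (0.742 to 0.985), and its log2 ratio of -0.21 was within 0.01 of the median gene.

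For 12 amino acids the list holds both a cytosolic and a mitochondrial enzyme, and in 10 of them the cytosolic side had the lower log2 ratio. Arginine and proline are not counted, as their cytosolic enzymes stand outside the list. For arginine the cytosolic YDR341C was lower, at -0.45 against 0.21 for MSR1. For proline the cytosolic YHR020W was slightly higher, at 0.14 against 0.09 for AIM10. For phenylalanine, 1 of the 10, the cytosolic value of 0.09 is the mean of FRS1 and FRS2, which fell on opposite sides of MSF1: FRS1 at -0.51 and FRS2 at 0.70, against 0.54 for MSF1. The median difference, cytosolic minus mitochondrial, was -0.54. It was greatest for leucine, at -2.63 for CDC60 against NAM2, then for glutamate, at -2.38 for GUS1 against MSE1, and for lysine, at -1.61 for KRS1 against MSK1. For tyrosine and serine the cytosolic gene was the higher one, TYS1 by 0.39 over MSY1 and SES1 by 0.54 over DIA4. A scaling of a whole library cancels in these differences, apart from the pseudocount.

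Expressed as levels, the cytosolic enzyme outweighed its mitochondrial counterpart by a median of 5.85 times per kilobase in the gim3 deletion library and 12.4 times in the WT library. For leucine the factor was 1.20 in the gim3 deletion library and 7.64 in the WT library. For glutamate it was 5.74 in the gim3 deletion library and 30.4 in the WT library, and for lysine 5.35 in the gim3 deletion library and 16.5 in the WT library. Tyrosine went the other way, with a factor of 24.7 in the gim3 deletion library and 18.9 in the WT library. In the gim3 deletion library leucine and methionine were the nearest to equal levels in both compartments, with a factor of 0.807 for methionine.

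**Figure D3:**
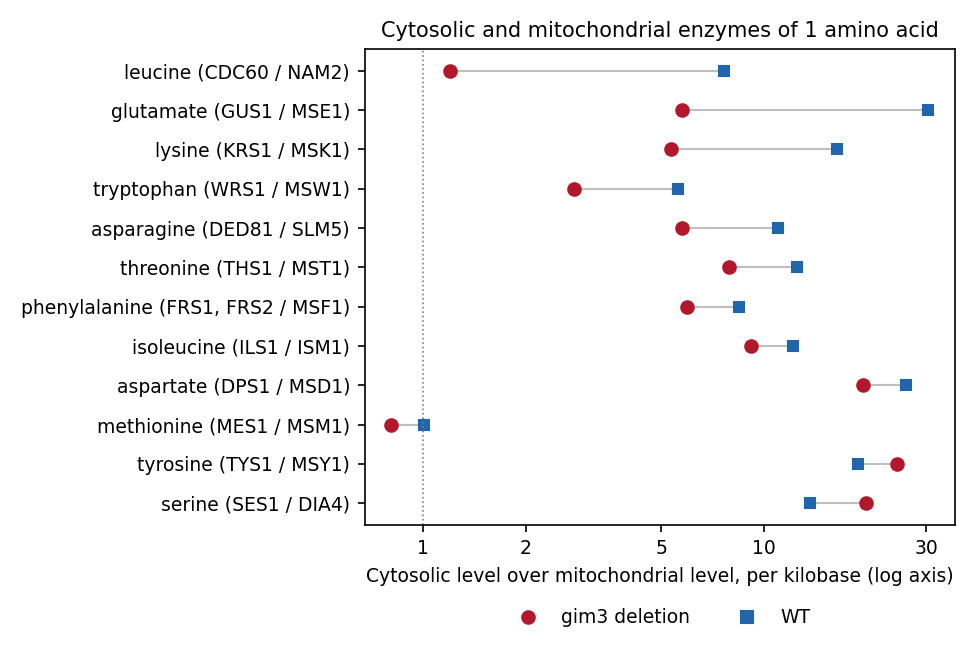
Level of the cytosolic enzyme over that of the mitochondrial enzyme for each of 12 amino acids, both per kilobase of coding length, on a log axis (circles, gim3 deletion; squares, WT). For phenylalanine the cytosolic level is the mean of FRS1 and FRS2. The circle lies left of the square for 10 amino acids and right of it for tyrosine and serine.

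The 4 listed members that start translation at different codons for the 2 places, ALA1, GRS1, HTS1 and VAS1, all had fewer footprints in the gim3 deletion library. So did 64.5% of all compared genes. Their log2 ratios ran from -1.23 for ALA1 to -0.20 for GRS1, with a median of -0.50. Of the 4, 3 lay below the median gene and GRS1 lay 0.004 above it. The 14 other members of the cytosolic or dual list had a median of -0.40, with 3 at least 2-fold lower (GUS1, CDC60 and KRS1). GUS1 stands among these 14 although its product is also imported into mitochondria. Synthetases fall into 2 structural classes with unrelated catalytic folds, and both held genes past 2-fold. In the cytosolic or dual list, GUS1 and CDC60 of the 8 class I genes were at least 2-fold lower, and KRS1 and ALA1 of the 10 class II genes. Over all compared genes 8.5% were at least 2-fold lower. The class medians were -0.46 for class I and -0.31 for class II in that list, and 0.21 and 0.14 for the same classes in the mitochondrial list.

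The 4 synthetase genes outside the list of names lay within 2-fold, as did 4186 of the 4916 compared genes. CRS1, which charges cysteine, had 68.3 RPM in the gim3 deletion library and 131 RPM in the WT library, 1.92-fold lower (1.82 to 2.02). YDR341C, the cytosolic arginyl enzyme, had 150 RPM in the gim3 deletion library and 205 RPM in the WT library, a log2 ratio of -0.45. YHR020W, the cytosolic prolyl enzyme, had 113 RPM in the gim3 deletion library and 103 RPM in the WT library, a log2 ratio of 0.14, close to the 0.09 of its mitochondrial counterpart AIM10. GRS2, a paralog of GRS1, had 20.03 RPM in the gim3 deletion library and 23.0 RPM in the WT library. Its ratio to GRS1 per kilobase was the same in both, with GRS1 at 8.46 times GRS2 in the gim3 deletion library and 8.47 times in the WT library, and reads shared between these paralogs may be split.

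Yeast mitochondria lack a glutaminyl-tRNA synthetase of their own. The glutamine tRNA there is first charged with glutamate by imported GUS1, and the product is then converted by an amidotransferase of HER2, PET112 and GTF1. HER2 had 32.4 RPM in the gim3 deletion library and 18.2 RPM in the WT library, 1.78-fold higher (1.62 to 1.97). PET112 had a log2 ratio of 0.33, and GTF1 had 14.3 RPM in the gim3 deletion library and 23.0 RPM in the WT library, a log2 ratio of -0.64. The subunits of this enzyme and GUS1 were thus spread over both directions.

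Uncharged tRNA is sensed in the cytosol by the kinase GCN2, which acts with GCN1 and GCN20 to raise translation of GCN4, the activator of amino acid biosynthesis genes. GCN2 was level between the libraries at 108 RPM in both, with a ratio of 0.999 (0.953 to 1.05). GCN1 had 221 RPM in the gim3 deletion library and 412 RPM in the WT library, and GCN20 had 91.4 RPM in the gim3 deletion library and 153 RPM in the WT library, with log2 ratios of -0.90 and -0.74. GCN4 had 6.17 RPM in the gim3 deletion library and 32.6 RPM in the WT library, the 1 gene of these 4 past 2-fold. Of 42 compared amino acid biosynthesis genes 16 were at least 2-fold lower and 1 at least 2-fold higher, against 8.5% and 6.35% of all compared genes, with a median log2 ratio of -0.81.

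Set beside other translation genes, the cytosolic synthetases lay near the translation factors and well above the ribosomal proteins. The 30 compared elongation, initiation and release factors of the cytosol had a median log2 ratio of -0.43, with 4 at least 2-fold lower and 0 higher, counts close to the 8.5% and 6.35% of all compared genes. YEF3, the fungal elongation factor, was lowest at -1.91, close to GUS1. The 132 compared cytosolic ribosomal protein genes had a median of -1.42, with 113 at least 2-fold lower, a level that only GUS1, CDC60 and KRS1 of the synthetases passed. Many ribosomal protein genes are near-identical pairs, so single values there are uncertain.

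Mitochondrial synthetases likewise stood near the other translation genes of the organelle. The 10 compared mitochondrial translation factors had a median log2 ratio of 0.43, from -0.27 for FMT1, which formylates the initiator methionyl-tRNA, to 0.93 for AIM23, an initiation factor. TUF1, the mitochondrial elongation factor that delivers charged tRNA, had 308 RPM in the gim3 deletion library and 196 RPM in the WT library, 1.57-fold higher (1.53 to 1.62). The 66 compared mitochondrial ribosomal proteins had a median of 0.30, with 7 at least 2-fold higher and 0 lower, against 6.35% and 8.5% of all compared genes. With 14 mitochondrial synthetases, 0 past 2-fold is close to those shares and does not set them apart from the ribosomal proteins. Genes that modify or process mitochondrial tRNA gave log2 ratios of 0.35 for RPM2, 0.36 for SLM3 and 0.10 for MSS1.

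**Figure D4:**
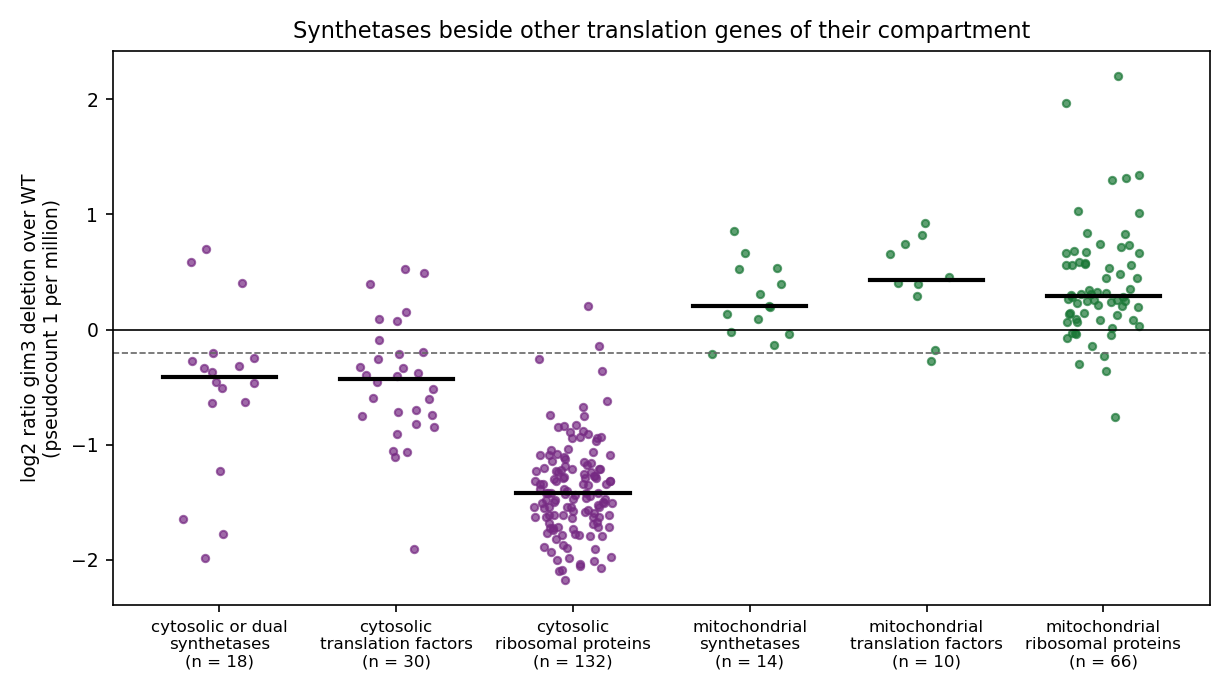
log2 ratio gim3 deletion over WT (pseudocount of 1 RPM) of each compared gene in 6 lists, cytosolic lists at left and mitochondrial lists at right. Each point is 1 gene, the sideways spread carries no meaning, bars are medians and the dashed line is the median compared gene. Medians run from -1.42 for cytosolic ribosomal proteins to 0.43 for mitochondrial translation factors. The median of each compartment's synthetases lies on the same side of the dashed line as the medians of its other lists, while single genes lie on both sides.

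Genes within the same ranges of mean level had other medians. Compared genes within the range of mean levels of the mitochondrial members (11.4 to 34.5 RPM, 1356 genes) had a median log2 ratio of -0.28, below the 0.20 of the 14 members. Compared genes within the range of the cytosolic or dual members (13.5 to 608 RPM) numbered 4367. Their median was -0.21, above the -0.41 of the 18 members, and 8.54% of them were at least 2-fold lower. MES1 alone sets the low end of this range, and the next member, WRS1, had a mean of 88.2 RPM. The range thus holds most of the 4916 compared genes. Its median must lie close to that of all genes, so it is no comparison at matched level.

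The libraries also differed in markers of meiotic stage. All 12 middle meiotic markers were past 2-fold on the higher side, against 6.35% of all compared genes. Their summed level was 24297 RPM in the gim3 deletion library and 2257 RPM in the WT library. The 12 early meiotic markers summed to 18891 RPM in the gim3 deletion library and 20052 RPM in the WT library, and 0 of 12 were past 2-fold. Of all compared genes 8.5% were lower and 6.35% higher by this rule, so 0 of 12 is close to the background. The 7 vegetative markers were sparse, with a sum of 43.1 RPM in the gim3 deletion library and 54.9 RPM in the WT library, and 1 of 7 reached a mean of 10 RPM. The 12 haploid or mating markers summed to 254 RPM in the gim3 deletion library and 83.5 RPM in the WT library. Most of this difference lay in STE18 (124 RPM in the gim3 deletion library, 9.77 in the WT library) and STE4 (62.9 and 21.4). Of the 12, 5 reached a mean of 10 RPM, 4 with a log2 ratio above 0 and 1, GPA1, below 0. Only STE4 and STE18 of these were past 2-fold. The pheromone genes MF(ALPHA)1 and MF(ALPHA)2 stood at 9 reads or fewer. The other pheromone genes, MFA1 and MFA2, were also sparse but higher in the gim3 deletion library. MFA1 had 46 reads there and 31 in the WT library, a ratio of RPM of 2.15 (1.34 to 3.51). MFA2 had 48 reads in the gim3 deletion library and 44 in the WT library, a ratio of 1.58 (1.03 to 2.44). The part of stage and cell mix in the synthetase values was not tested.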

How the data were processed

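The authors deposited 1 table of RPM values, 1 column per library. The unit was read from the values: each column sums to 1000000, and 100% of values were whole multiples of the smallest one (within 0.001 of a read), which recovers the read numbers. Bowtie2, STAR and SAMtools were used, per the submitters' processing notes. Their versions, the genome build and the handling of reads in overlapping or repeated genes are not stated in the labels or the file. The 86 lines without a gene name (0.124% of gim3 deletion and 0.121% of WT reads) were left out.

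The ratio of RPM was given with Clopper-Pearson 95% intervals, and its log2 with a pseudocount of 1 RPM, over genes whose mean reached 10 RPM. Coding lengths came from the R64 RefSeq table, matched for all 32 members. Reads copied by PCR could not be separated from independent molecules. No negative binomial model was fitted, for want of replicates, and an exact binomial test of the 2 libraries stands among the alternatives. The calls and intervals were run on simulated libraries that held known folds and counting error only. Such libraries cannot show how the calls would hold between replicates. All members were named, with the lists of genes around them. Members and lists were chosen with earlier results of these data known. The software was matplotlib 3.10.9, statsmodels 0.14.6, SciPy 1.17.1, pandas 2.3.3 and numpy 2.4.6 under Python 3.11.15.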

Additional observations from a re-analysis of the deposited data

How the results depend on the processing

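The alternatives were pseudocounts of 0.1 and 5 RPM, no filter or a mean of at least 50 RPM, other scalings, removal of a trend on coding length, other member lists, the mean, and other rules for calls. No setting turned the direction of either median or of their difference, which ran from -0.77 (means) to -0.56 (pseudocount of 5 RPM, or without members beside a frame at 0, an alternative chosen after seeing the data), and the same 10 of 12 amino acids had the lower cytosolic value under each pseudocount, without the filter and with the length trend removed. With FRS1 and FRS2 each paired with MSF1, the count was 10 of 13 pairs, FRS1 below MSF1 and FRS2 above it. With a mean of at least 50 RPM 0 mitochondrial members are left, so no value is given.

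Centred on the median gene, the cytosolic or dual median was -0.21 and the mitochondrial one 0.41. With trimmed mean scaling they were -0.21 and 0.40. NAM2 was then past 2-fold, so 1 mitochondrial member was higher under either scaling. Without GUS1, CDC60, KRS1 and ALA1, left out after seeing the data, the cytosolic or dual median was -0.33. At 1.5-fold, 6 cytosolic or dual members were lower and 2 higher, and 2 mitochondrial members were higher. The exact binomial test on recovered reads (Benjamini-Hochberg adjusted over all compared genes), which compares 2 libraries and not the genotypes, separated 15 lower and 3 higher cytosolic or dual members and 1 lower and 8 higher mitochondrial ones. It separated 58.1% of all compared genes as lower and 30.1% as higher. Without ribosomal protein genes in the total, the cytosolic or dual share in the WT library was 0.501%. Without ALA1, GRS1, HTS1 and VAS1 it was 0.245% in the gim3 deletion library and 0.337% in the WT library. No paired analysis was possible because each genotype has 1 library. The sparse mitochondrial members, with 316 to 1245 reads in the gim3 deletion library and 465 to 1196 in the WT library, limit the precision of their ratios.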
